A study of Mus musculus with 6 samples.

Results

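The genes of the constitutive 26S proteasome were examined in cultured mouse colorectal cancer cells of the iKAP model, as 31 genes of 18193 with a probe set named to 1 gene. The 31 were listed by the names of the subunits, and earlier results of these data were known when they were listed; they are 7 core alpha subunits, 7 core beta subunits, 6 ATPase subunits (Psmc) and 11 non-ATPase subunits (Psmd). Each gene is represented by its brightest probe set, judged by mean log2 intensity. All 31 lay above the filter on low intensity, which left 12795 genes in the test.

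The samples were 6 Affymetrix arrays of total RNA from 1 primary culture of iKAP cells, a genetically engineered model whose alterations, loss of Apc and Trp53 among them, both groups share. In 3 arrays the cells were labelled as stably expressing an IRF2 open reading frame from a lentiviral construct, and in the 3 control arrays as expressing GFP from the same kind of construct. IRF2 is an interferon regulatory factor, and the study asked how its expression changes the genes of these tumour cells. The cells were grown with a tetracycline-free supplement, and the labels do not say what animal the culture came from or whether replicates were grown apart. The p-values therefore measure only how far these arrays scatter, possibly for technical reasons, and the number of arrays limits the precision.

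Irf2 itself, through a probe set that names no other gene but has an ending by which Affymetrix marks probes that can also match other transcripts, gave 65.4, 60.5 and 62.0 on the GFP control arrays and 37.0, 36.6 and 35.2 on the arrays labelled IRF2, lower where the label says it was expressed. Directions below are therefore those of the arrays labelled IRF2, and each would turn if the labels were exchanged. Whether they were, and whether this probe set reads the introduced open reading frame, was not tested. Of 9 epithelial markers, 7 lay above the filter, with Krt20 and Vil1 under it, and their summed intensity was 14526 to 14677 in controls against 16019 to 16156 under the IRF2 label. That sum is mostly keratin: Krt8 and Krt18 rose by 0.50 and 0.08 on the log2 scale, whereas Epcam, Cdh1 and Cdh17 fell by 0.81, 0.75 and 0.57, and Krt19 (-0.02) and Cdx2 (-0.12) did not pass. The 8 immune markers with a probe set summed to 267 to 301 and 295 to 307, with Ptprc, Adgre1 and Itgam under the filter, and the 9 stromal and endothelial markers to 147 to 153 and 138 to 146, with Col1a1, Lum and Pecam1 under it. Of these, Cd14 rose by 0.18 (limma adjusted p = 0.0350) and Pdgfrb fell by 0.40 (limma adjusted p = 0.00117), and no other tested one was called. A dimmer probe set of Pdgfrb read 21.5, 20.8 and 19.8 in controls against 21.5, 23.3 and 21.2 under the IRF2 label. Beta-actin read 0.996 to 1.02 times as bright at its 3' as at its 5' probe set on all arrays. For the transferrin receptor that ratio was 3.61 to 3.78 in controls against 3.81 to 4.47 under the IRF2 label, and the 5' probe set of 18S rRNA read 1798 to 2034.5 and 2099 to 2254. The part of these differences in the results below was not tested.

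The 26S proteasome is the protease that degrades proteins tagged with ubiquitin in the cytosol and nucleus of every cell type. Its barrel-shaped 20S core has outer rings of alpha subunits, which gate the entry, and inner rings of beta subunits, which hold the cutting sites. The 19S regulatory particle caps the barrel: its Psmc ATPases unfold the substrate and feed it in, and its Psmd subunits bind ubiquitin, remove it and hold the cap together. The complex also makes many of the peptides that MHC class I presents, and in cells exposed to interferon the catalytic beta subunits can be replaced by inducible ones.

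Proteasome subunit genes were slightly lower on the arrays labelled IRF2, across every class of subunit. Of the 31 genes, 24 fell, 0 rose and 7 did not pass the test (limma adjusted p under 0.05). Over all genes tested, 19.8% were called lower and 16.5% higher. The falls were small: the median log2 fold change over the 31 genes was -0.10, or 6.59% lower, against 0.00 over all genes, and the 24 falls ran from 3.75% (Psma3) to 17.3% (Psmd7). Psmd7, Psmb3, Psma5, Psmd11 and Psmd3 were lower by more than 10%.

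Proteasome genes were bright on these arrays, with mean intensities from 503 to 3006, where small differences pass the test more readily. Among the 2069 genes in that intensity range, a comparison chosen after the values were seen, 34.8% were called lower and 22.6% higher, with a median log2 fold change of -0.02. The standard errors of the 31 log2 fold changes ran from 0.02 to 0.05. In 26 of the 31 genes each array labelled IRF2 lay below each GFP control array, as in 24.2% of all genes tested. The count of calls rests on sharing the spread among genes of like intensity: fitted without that intensity trend, 11 of the 31 genes were called lower, where 15.7% of all genes were. Psma5, Psmb3, Psmc1, Psmc5, Psmd3, Psmd7, Psmd11 and Psmd12, 8 genes, were called lower under each of the 16 alternatives that were run. A lower reading is relative to the other transcripts on the same array, and fewer cells with the transcript and less of it per cell cannot be told apart in bulk RNA.

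**Figure D1:**
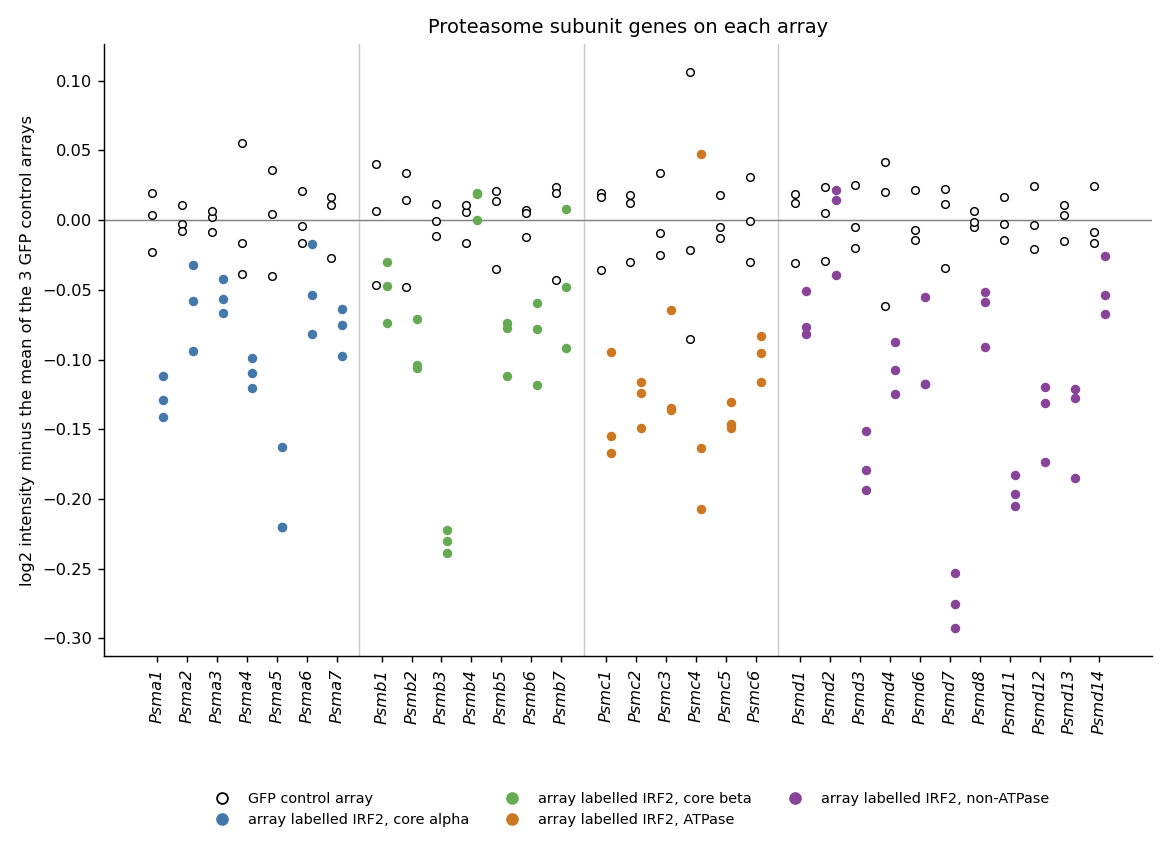
Log2 intensity of each of the 31 proteasome subunit genes on each array, minus the mean of the 3 GFP control arrays for that gene (open circles, GFP control arrays; filled circles, arrays labelled IRF2, coloured by subunit class). In 26 genes the filled circles lie wholly below the open ones; Psmd7 and Psmb3 lie lowest, and Psmb4, Psmd2, Psmb7, Psmb1 and Psmc4 overlap.

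The mean over all 31 genes, relative to the GFP control mean, was -0.11, -0.10 and -0.11 on the 3 arrays labelled IRF2, on the log2 scale. On the GFP control arrays it was 0.01, -0.01 and 0.00. The 3 arrays labelled IRF2 were thus close to each other, and no single array carried the shift. By class the median log2 fold change was -0.08 for alpha subunits, -0.09 for beta subunits, -0.12 for ATPases and -0.11 for non-ATPases; the difference between classes was not tested.

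All 7 alpha subunit genes had estimates below 0, and 6 fell (85.7%, against 19.8% of all genes). Psma5 fell the most, with 1360.2, 1434 and 1403 on the GFP control arrays and 1201, 1249 and 1201 on the arrays labelled IRF2. Its groups were far apart: the log2 fold change was -0.20 (SE 0.03, adjusted p = 1.81e-05), and a second bright probe set gave -0.18. Psma1 followed at -0.13 (SE 0.02, adjusted p = 2.84e-04; -0.07 and no longer called in the mean of its probe sets, which include dim ones).

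Psma4, whose tail takes part in closing the gate, was lower by 7.32% (2461 ± 84.6 against 2280.2 ± 17.5, SD, n = 3 each). Psma7 was lower by 5.32%, and its second probe set was called lower too, at -0.07, but leaving out the replicate 2 array labelled IRF2 ended the call of the gene (adjusted p = 0.0532), as did leaving out the intensity trend (adjusted p = 0.0961). Psma2 and Psma3 were lower by 4.16% and 3.75%, the smallest of the called alpha differences. Their calls were the least secure: Psma2 lost its call under 7 of 16 alternatives and Psma3 under 6, and under a further one, the mean of its probe sets, the Psma3 estimate turned to 0.00081.

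Psma6 was the alpha gene that did not pass. It read 1955, 1989 and 1938 on the GFP control arrays and 1852, 1889 and 1938 on the arrays labelled IRF2. The lowest control and the highest array labelled IRF2 all but touched, the log2 fold change was -0.05 (SE 0.02, adjusted p = 0.0902), and another bright probe set of the gene gave 0.00068. Without the replicate 3 array labelled IRF2 it was called lower, at -0.07 (adjusted p = 0.0327), as it was under quantile normalization (adjusted p = 0.0412).

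Among the beta subunit genes, 4 of 7 fell (57.1%, against 19.8% of all genes and 34.8% of those in the same intensity range). Fitted without the intensity trend, 1 of the 7 was called lower, where 15.7% of all genes were. That fit thus gave no larger share for the beta genes than over all genes. Psmb3, a structural subunit of the inner ring, fell the most of all core genes. It read 1769, 1756 and 1784 on the GFP control arrays and 1509, 1517 and 1499.7 on the arrays labelled IRF2. The groups were separated by many times their own spread, with a log2 fold change of -0.23 (SE 0.02, adjusted p = 3.67e-07), and its second probe set gave -0.21.

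Psmb4, also a structural subunit, stood at the other end of the class. It read 2478, 2441 and 2488 on the GFP control arrays and 2502, 2469 and 2502 on the arrays labelled IRF2. The arrays overlapped, and the log2 fold change of 0.01 (SE 0.02, adjusted p = 0.664) was the only one of the 31 above 0; its second bright probe set gave -0.01. Psmb2 fell by 6.28% (adjusted p = 0.0068), and Psmb1 was lower by 3.44% but did not pass (adjusted p = 0.119). The call of Psmb2 was lost without the replicate 3 GFP control array (limma adjusted p = 0.0529) and without the intensity trend (limma adjusted p = 0.0854). Psmb1 was called lower without the replicate 2 GFP control array (-0.07, adjusted p = 0.0201), under quantile normalization (-0.07, adjusted p = 0.0330) and when its probe sets were averaged (-0.09, adjusted p = 0.0289).

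The catalytic subunits differed little between the groups. Psmb5, which cuts after hydrophobic residues, read 1982, 1907 and 1973 on the GFP control arrays and 1856, 1852 and 1808 on the arrays labelled IRF2. The arrays did not overlap, and the fall was 5.88% (log2 fold change -0.09, SE 0.02, adjusted p = 0.0057). Psmb6, which cuts after acidic residues, read 1739, 1716 and 1737 against 1594, 1661 and 1639. Its arrays did not overlap either, and it fell by 5.75% (-0.09, SE 0.02, adjusted p = 0.0060). Without the intensity trend both calls were lost (limma adjusted p = 0.0840 for Psmb5 and 0.0812 for Psmb6). Psmb7, which cuts after basic residues, read 1337, 1276 and 1333 against 1322, 1272 and 1234. These values overlapped, and the difference of -0.04 (SE 0.03) did not pass (adjusted p = 0.252). Each of the 3 genes had 1 probe set on the array.

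The inducible subunits that can take their places moved the other way. Psmb8, which replaces Psmb5, read 12.8, 10.1 and 17.4 on the GFP control arrays and 162, 175 and 161 on the arrays labelled IRF2 (log2 fold change 3.67, SE 0.14; 1.94 with its probe sets averaged and 2.64 with 16 added before the log), Psmb9, which replaces Psmb6, came to 2.11 (SE 0.11; 1.55 with 16 added) and Psmb10, which replaces Psmb7, to 0.74 (SE 0.05). Within arrays, the log2 ratio of inducible to constitutive gene shifted by 3.75 for Psmb8 over Psmb5, by 2.19 for Psmb9 over Psmb6 and by 0.79 for Psmb10 over Psmb7. In each of these 3 pairs all arrays labelled IRF2 were above all controls, and the exact two-sided permutation p was 0.1, also after adjustment over the 3 pairs, the smallest that 3 arrays against 3 can give. The control readings of Psmb8 lie around the filter of 11.3, with 1 of the 3 under it, so the size of its rise depends on values near background. The levels of different probe sets cannot be set against each other, so these data give no share of inducible to constitutive subunits.

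**Figure D2:**
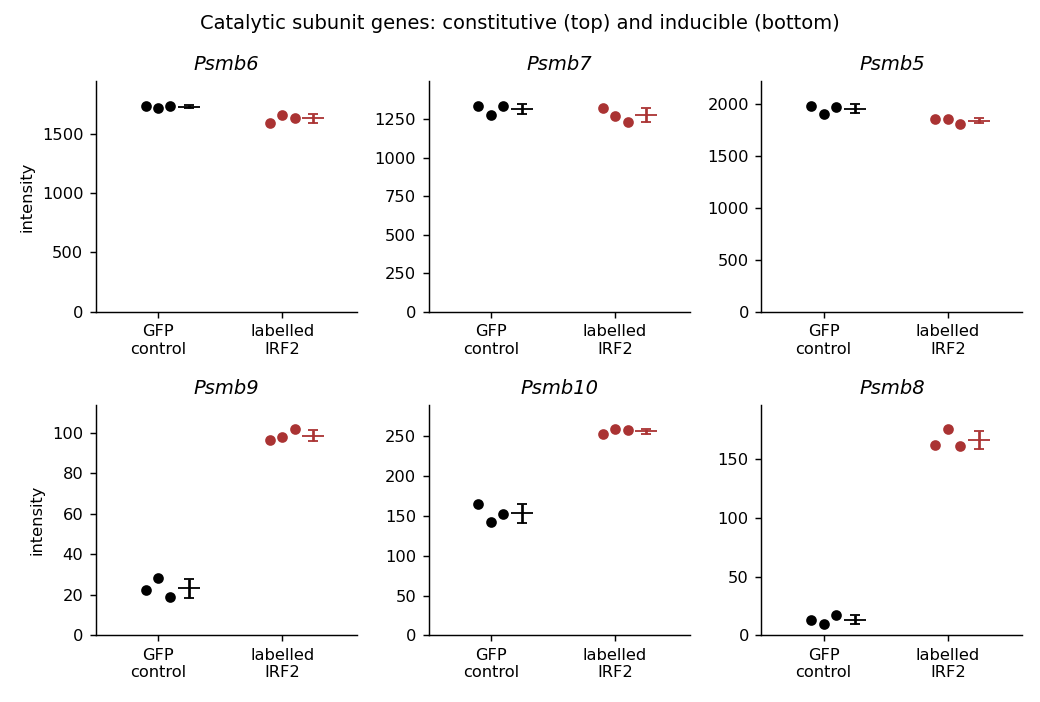
Intensity (linear axis from 0) of the constitutive catalytic subunit genes Psmb6, Psmb7 and Psmb5 (top) and, below each, of the inducible gene that replaces it, Psmb9, Psmb10 and Psmb8; points are arrays, and the bar beside them is the mean with the SD of 3 arrays. The top panels differ by at most 5.88%; in the bottom panels all arrays labelled IRF2 lie above all controls, and the Psmb8 controls lie near background.

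The region just upstream of the start is shown for 4 beta subunit genes, because they span the range from the largest core fall to no fall. Psmb5 and Psmb6 were also picked because each holds a match to the core of the antioxidant response element. The factor Nfe2l1 is known to act on proteasome genes through that element, but whether it binds these matches was not tested. The sequences are the 200 bases before the RefSeq start, read 5′ to 3′ on the gene's strand, in GRCm38.p6, at chr11:97703234-97703433, plus strand for Psmb3, at chr3:94886959-94887158, minus strand for Psmb4, at chr14:54617996-54618195, minus strand for Psmb5 and at chr11:70525157-70525356, plus strand for Psmb6. Capitals mark matches, on either strand, to TGACNNNGC (the core of the antioxidant response element), to CCAAT, or to GAAA followed by any 2 bases and a second GAAA (the core of the interferon response element).
Psmb3: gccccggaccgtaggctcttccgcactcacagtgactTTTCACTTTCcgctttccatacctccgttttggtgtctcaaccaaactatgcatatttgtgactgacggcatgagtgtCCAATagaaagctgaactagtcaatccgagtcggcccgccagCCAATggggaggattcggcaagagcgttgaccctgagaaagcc
Psmb4: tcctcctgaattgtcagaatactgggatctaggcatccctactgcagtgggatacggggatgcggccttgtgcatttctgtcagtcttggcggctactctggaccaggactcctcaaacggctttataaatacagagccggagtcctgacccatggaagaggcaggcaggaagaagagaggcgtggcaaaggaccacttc
Psmb5: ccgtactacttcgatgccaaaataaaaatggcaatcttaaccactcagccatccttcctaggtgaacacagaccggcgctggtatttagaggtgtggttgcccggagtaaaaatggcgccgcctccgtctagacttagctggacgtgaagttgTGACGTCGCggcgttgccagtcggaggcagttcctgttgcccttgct
Psmb6: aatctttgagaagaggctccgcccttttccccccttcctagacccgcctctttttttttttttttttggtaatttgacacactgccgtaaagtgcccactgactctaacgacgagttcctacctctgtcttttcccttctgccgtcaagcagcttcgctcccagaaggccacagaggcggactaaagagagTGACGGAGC

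In these windows Psmb5 held the antioxidant response element core 47 to 39 bases before the start and Psmb6 held it 9 to 1 bases before the start, both on the gene's strand. Psmb3 held 2 CCAAT boxes, 85 to 81 and 43 to 39 bases before the start, and an interferon response element core on the opposite strand 163 to 154 bases before it. Psmb4 held none of the 3 motifs in the 250 bases searched. Promoters were found for 25 of the 31 genes, 27 in all; none was matched for Psmb1, Psmb2, Psmb7, Psmc3, Psmd3 or Psmd7. The antioxidant response element core was in 4 of the 27 (14.8%), against 10.2% of all 32851 promoters, the CCAAT box in 10 (37.0%) against 33.8%, and the interferon response element core in 2 (7.41%) against 2.98%. The other matches to the first were in Psmc6 and Psmd12, and the other match to the last was in Psmd4. These shares rest on few promoters.

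Of the 6 ATPase genes, 5 fell (83.3%, against 19.8% of all genes), by amounts between 6.59% (Psmc6) and 9.36% (Psmc5). Psmc5 read 1536, 1569 and 1544 on the GFP control arrays and 1400.3, 1398 and 1416 on the arrays labelled IRF2. Its groups were tight and well apart (log2 fold change -0.14, SE 0.02, adjusted p = 6.90e-05). Psmc1 fell by 9.17%, Psmc2 by 8.61%, with a second bright probe set at -0.09, and Psmc3 by 7.46%.

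Psmc6, at the low end of the class, read 1503, 1472 and 1536 on the GFP control arrays and 1387, 1419 and 1407 on the arrays labelled IRF2. The arrays did not overlap (log2 fold change -0.10, SE 0.02, adjusted p = 0.00295), although the other 2 probe sets above the filter gave -0.06 and -0.03 and were not called. In the mean of their probe sets, which takes in dim ones, Psmc2 came to -0.05 (adjusted p = 0.177) and Psmc6 to -0.06 (adjusted p = 0.387), so that 3 of the 6 ATPase genes were then called.

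Psmc4 had the largest standard error of the 31 genes. It read 1143, 1248 and 1093 on the GFP control arrays and 1004, 1035 and 1198 on the arrays labelled IRF2. The replicate 3 array labelled IRF2 lay within the control range and the other 2 below it, so that the difference of -0.11 (SE 0.05, adjusted p = 0.147) did not pass. Without that array the estimate was -0.19 (adjusted p = 0.00446). A second probe set of Psmc4, with 920.0, 875 and 920 against 831, 869 and 868, was steadier and was called lower, at -0.08 (SE 0.03, adjusted p = 0.0496 over all probe sets).

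**Figure D3:**
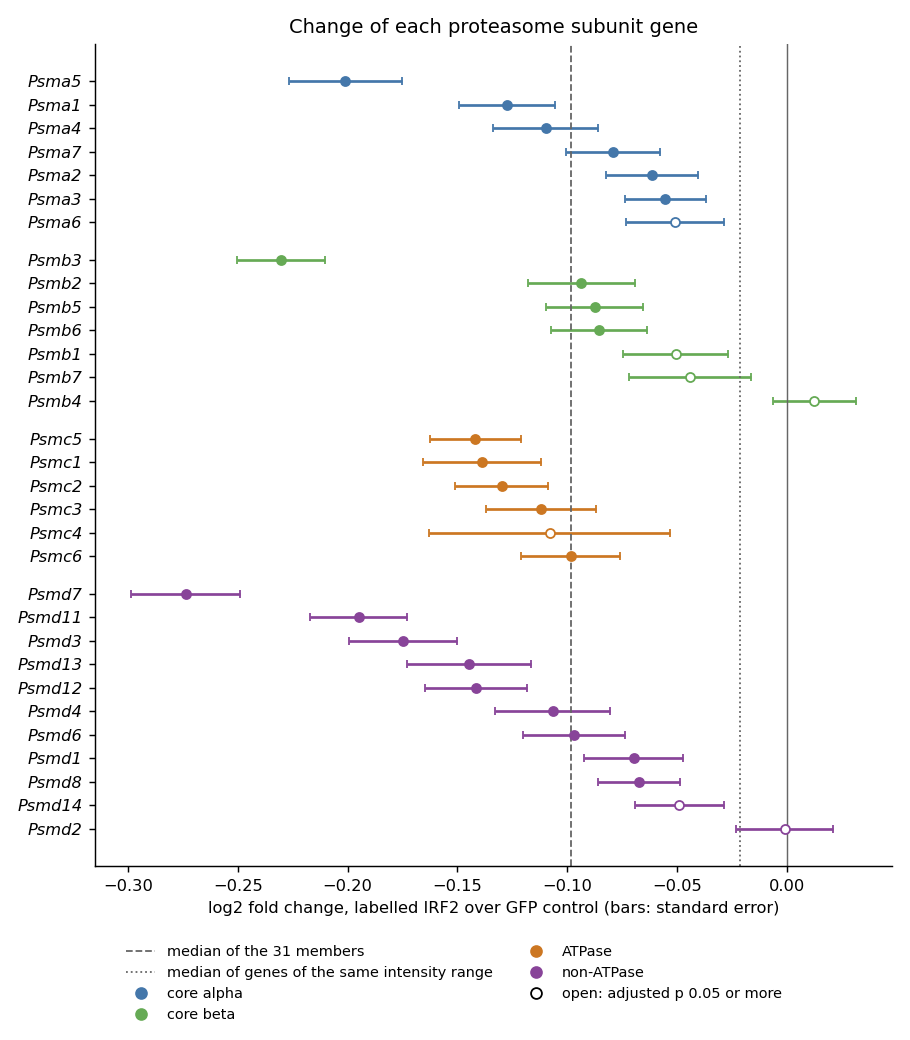
Log2 fold change of each of the 31 genes, arrays labelled IRF2 over GFP control (points), with its standard error (bars), by subunit class; filled points passed the test and open points did not. The dashed line is the median of the 31 genes (-0.10) and the dotted line that of genes in the same intensity range (-0.02); 24 points are filled, all left of 0.

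The non-ATPase genes held the widest range. Of 11, 9 fell (81.8%, against 19.8% of all genes), and all 11 estimates were below 0. Psmd7, a structural partner of the deubiquitinase Psmd14 in the lid of the regulatory particle, fell the most of the 31 genes. It read 1010.1, 1018 and 978 on the GFP control arrays and 818, 841 and 828 on the arrays labelled IRF2. The groups were far apart, with a log2 fold change of -0.27 (SE 0.02, adjusted p = 5.33e-07). Its second probe set above the filter was dim, at a mean of 54.6, and gave -0.16 without a call; averaging its probe sets gave -0.16 (adjusted p = 0.0349).

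Psmd11, a lid subunit that joins the cap to the core, was read by more probe sets than any other member. Its brightest one read 1189.6, 1206 and 1180.3 on the GFP control arrays and 1050.0, 1040.0 and 1034 on the arrays labelled IRF2. The arrays did not overlap, and the log2 fold change was -0.19 (SE 0.02, adjusted p = 5.32e-06). Its 3 other probe sets with a mean intensity above 100 gave -0.29, -0.25 and -0.12, all called lower, so the direction was shared and the size was not.

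The lid genes Psmd3, Psmd13 and Psmd12 fell by 11.4%, 9.54% and 9.34%. Psmd3 read 896, 869 and 878 against 793, 770.3 and 778, with a wide gap between the groups. The fall of Psmd12 was called under each alternative, whereas that of Psmd13 came to -0.07 (adjusted p = 0.217) once its probe sets, some of them dim, were averaged. Psmd4, a receptor for ubiquitin chains, fell by 7.11%, with a second probe set at -0.12, and Psmd6, a lid subunit, by 6.49%. A second bright probe set of Psmd6 gave -0.08 and was not called (limma adjusted p = 0.234 over all probe sets). The calls of Psmd4 and Psmd6 were each lost under 1 of 16 alternatives (limma adjusted p = 0.0761 and 0.0679).

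Psmd1, a scaffold of the base, and Psmd8, a lid subunit, fell by 4.71% and 4.55%, the smallest falls of the class. The call of Psmd1 was lost under 7 of 16 alternatives and that of Psmd8 under 2. Psmd14, the deubiquitinase that strips ubiquitin from substrates at the entry, read 2725, 2709 and 2788 on the GFP control arrays and 2640.2, 2693 and 2616 on the arrays labelled IRF2. Its arrays did not overlap, but the difference of -0.05 (SE 0.02, adjusted p = 0.0741) did not pass; it was called lower under quantile normalization (adjusted p = 0.0372).

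Psmd2, the other large scaffold of the base and a docking site for ubiquitin-binding proteins, read 2862, 2758 and 2825 on the GFP control arrays and 2739, 2843 and 2857 on the arrays labelled IRF2. The arrays overlapped fully and the log2 fold change was -0.0009 (SE 0.02, adjusted p = 0.981). The sign of that estimate changed with the scaling, the treatment of probe sets and the arrays included. Psmd2 and Psmb4 were the members whose estimates lay nearest to 0.

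The probe sets not used for the main values gave a further reading of the same arrays. The 31 genes had 67 probe sets, of which 57 lay above the filter. Tested on their own, 34 of the 57 were called lower and 0 higher, where 17.2% of all 23041 probe sets tested were called lower. Of the 26 that were not the brightest of their gene, 15 had a mean intensity above 100, and 10 of these were called lower, with changes from -0.29 to 0.00068. None of the 11 dimmer ones was called. In 13 genes the array held 1 probe set only, and the brightest probe set of 3 genes (Psma6, Psmc2 and Psmd11) has an ending by which Affymetrix marks probes that can also match other transcripts.

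**Figure D4:**
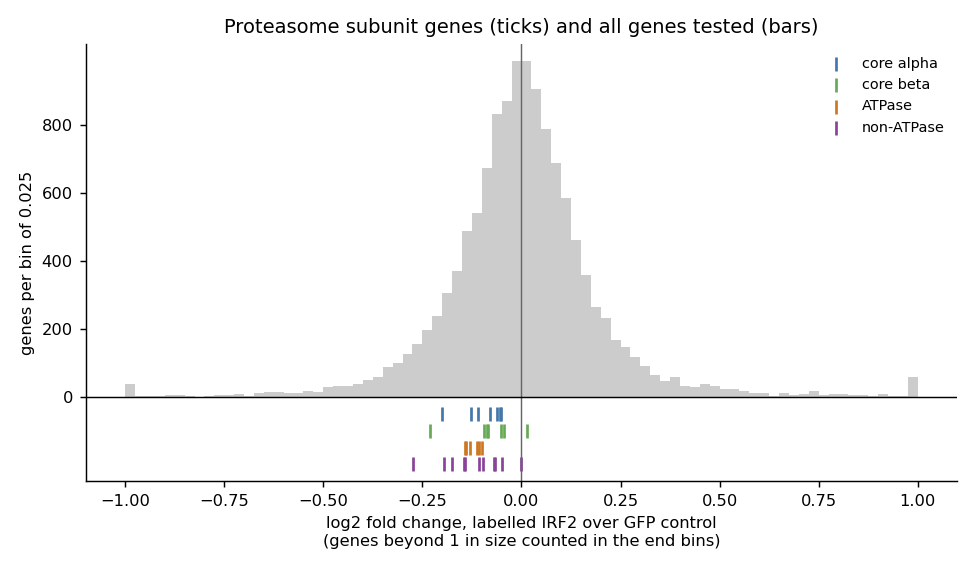
Histogram of the log2 fold change of all 12795 genes tested (bars, genes per bin; the end bins hold all genes beyond 1 in size) with the 31 proteasome subunit genes as ticks below, by class. The ticks lie between -0.27 and 0.01, within the middle of the distribution and left of its centre.

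Other genes of the pathway moved in both directions. Of 43 genes listed for assembly, activation, partner proteins, regulation and ubiquitin supply, 31 were tested. Of these, 12 fell (38.7%, against the 19.8% of all genes) and 5 rose, where 16.5% of all genes rose. Rises were thus no more frequent than among all genes. The median log2 fold change of the tested pathway genes was -0.04. Their difference from the 31 subunit genes was not tested. Of the other 12 genes 3 lay under the filter (Psma8, Psmb11 and Nfe2l3), and 9 had no probe set named to them alone.

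Of the 8 assembly chaperone genes, 2 fell and 0 rose, where 19.8% of all genes fell and 16.5% rose. So few genes cannot set this list apart from all genes. Pomp, which guides the assembly of the beta rings, read 2557, 2532 and 2558 on the GFP control arrays and 2274, 2266 and 2213 on the arrays labelled IRF2, with no overlap (log2 fold change -0.18, SE 0.02, adjusted p = 3.78e-06). Psmg3, which helps to build the alpha ring, read 455, 438 and 451 against 343, 377 and 346 and fell by 20.8% (-0.34, SE 0.04; -0.19 with its probe sets averaged). The remaining 6 chaperone genes, Psmg1, Psmg2, Psmg4, Psmd5, Psmd9 and Psmd10, did not pass, with changes from -0.06 to 0.11.

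The activator genes, whose products cap the core in place of the regulatory particle, moved apart. Psme1, an activator subunit induced by interferon gamma, read 656, 688 and 676 on the GFP control arrays and 1094, 1149 and 1140.0 on the arrays labelled IRF2 and rose by 0.74 (SE 0.03). Psme3, its nuclear relative, read 330.3, 318 and 322 against 257, 269 and 260.4 and fell by 0.30 (SE 0.03), or by 0.18 in the mean of its probe sets. Psme4, a large single-chain activator, fell by 0.18 (SE 0.02), a call lost when its probe sets were averaged (-0.11, adjusted p = 0.0514).

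Of the 10 tested genes for proteins that work on or near the proteasome, 6 fell and 0 rose, where 19.8% of all genes fell and 16.5% rose. Their median log2 fold change was -0.14. The list is small, and its difference from all genes was not tested. Zfand2a, a stress-induced proteasome partner, fell the most, with 1081, 1060.4 and 1060.4 in controls against 831, 809.8 and 824 under the IRF2 label, a log2 fold change of -0.38 (SE 0.02). The deubiquitinase gene Uchl5 fell by 0.32 (SE 0.03), the ubiquitin ligase gene Ube3c by 0.30 (SE 0.03; 0.20 with its probe sets averaged), the shuttle gene Rad23b by 0.20 (SE 0.02) and Zfand5 by 0.15 (SE 0.02; 0.10 and not called with its probe sets averaged).

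Of 7 tested regulators, 2 rose, where 16.5% of all genes did, and 2 fell (28.6%, against 19.8% of all genes). These counts are too small to set the list apart from all genes. Nfe2l1, which switches on proteasome subunit genes when the proteasome is inhibited, read 361 ± 1.70 and 394 ± 9.37 (SD, n = 3 each) and so rose, by 0.13 on the log2 scale (SE 0.03, adjusted p = 0.00362). Nfya, a subunit of the CCAAT-binding factor, rose by 0.24 (SE 0.05). Ngly1 and Vcp, both known to act in the processing of the Nfe2l1 protein, fell by 0.15 (SE 0.05) and 0.09 (SE 0.02). The call of Vcp was lost without the intensity trend (adjusted p = 0.0589). That of Ngly1 was lost without the intensity trend (adjusted p = 0.0651) and when either the replicate 3 GFP control array (0.106) or the replicate 1 array labelled IRF2 (0.101) was left out. Sem1, a small subunit of the lid that the 31 genes did not include, was the only tested gene of 4 listed as other subunits. It rose by 0.09 (SE 0.02, limma adjusted p = 0.00361), against the direction of the lid genes that fell. That call was lost without the intensity trend (limma adjusted p = 0.0678). A second bright probe set of Sem1 read 808, 813 and 794 on the GFP control arrays and 803, 811 and 826 on the arrays labelled IRF2, which overlapped.

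**Figure D5:**
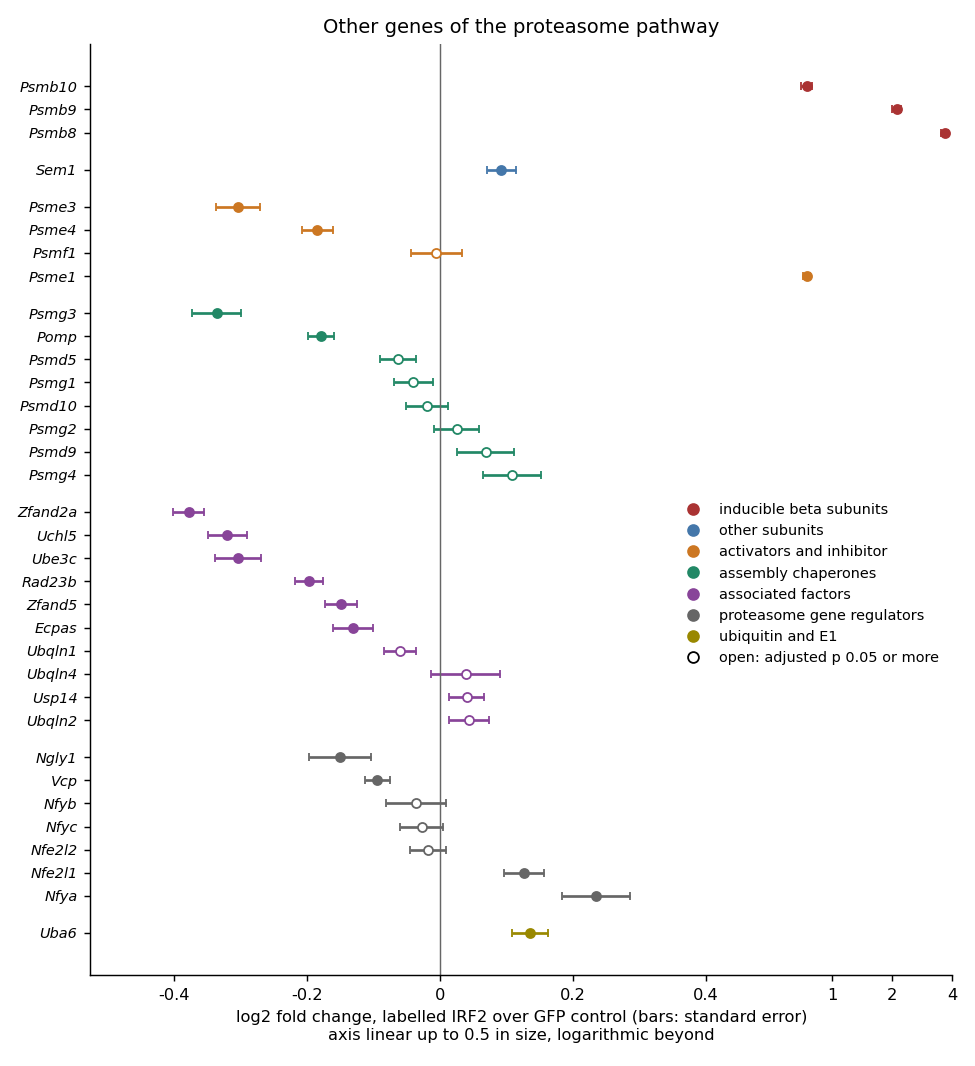
Log2 fold change (arrays labelled IRF2 over GFP control) and standard error of the tested pathway genes outside the 31 (axis linear up to 0.5 in size and logarithmic beyond; filled points passed the test). The inducible subunits and Psme1 lie at 0.74 to 3.67, and every other point lies between -0.38 and 0.24.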

How the data were processed

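Total RNA of 6 samples, 3 labelled IRF2 and 3 GFP control, was measured on 1-colour Affymetrix arrays. The authors deposited 1 linear intensity per probe set, from 2.59 to 14181; per the submitters' processing notes MAS5 was used, with no role or version, and any scaling is not stated there. Array medians ran from 18.2 to 18.7, so no further scaling was applied. The 2% trimmed means did not overlap: they ran from 116.08 to 117.1 in controls and from 114.9 to 116.04 under the IRF2 label. The 45037 probe sets that are not controls were named from GEO's platform annotation: 34945 had 1 symbol, 932 several and 9160 none, and the gene number of 34741 was found in RefSeq (GRCm38.p6). Genes at or under the 40th percentile of mean log2 intensity (11.3) were left out. The log2 intensities of all 12795 genes entered 1 linear model (limma 3.58.1, run under R 4.3.3, with eBayes and its trend option; group as the only term, 4 residual degrees of freedom; two-sided, Benjamini-Hochberg over all genes, threshold 0.05), and the fit was tested on simulated data. Changes are IRF2 over GFP control, with the moderated standard error. The members and gene lists were chosen with earlier results of these data known; all 31 members are named, with array values by rule for the catalytic subunits and the largest and smallest change of each class. Array values of other genes were chosen for printing after they were seen, and pathway genes are named beside the count of their list. Same-numbered arrays did not deviate together (correlations of 0.07, -0.08 and 0.00), so the numbers were not used as pairs. Promoters were searched with Python 3.11.15. Part of the model's genotype is not reported here.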

Additional observations from a re-analysis of the deposited data

How the results depend on the processing

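Of the 31 proteasome genes, 20 to 26 were called lower and 0 higher under each alternative but one: with no intensity trend the count was 11, with 2 alpha, 1 beta, 3 ATPase and 5 non-ATPase genes, as their median standard error rose from 0.023 to 0.032. Without that trend 15.7% of all genes were called lower. With the mean of all probe sets 3 ATPase genes were called. Without 1 array at a time the count ran from 20 to 25. With the replicate number as a block it was 24, and no call of a member changed. The median over the 31 genes ran from -0.11 to -0.09. Scaling by the 2% trimmed mean moved the median of all genes to 0.01 and left 21 members called lower. Among 496 pairs of member and alternative, 37 lost a call, 7 gained one and 6 changed sign. The sign changes were Psma3 with its probe sets averaged (0.00081), and Psmd2 under trimmed mean scaling (0.011), with its probe sets averaged (0.073) and without 1 array at a time, where it ran from -0.015 to 0.018 and was above 0 in 3 of 6. Both averages took in a dim probe set: for Psma3 one with a mean intensity of 22.7, which gave 0.06, and for Psmd2 one under the filter. The cause of the sign changes was not tested. Dim probe sets limit these readings: a within-gene mean weights them equally with bright ones.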
